A study of Homo sapiens with 18 samples.

Results

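The albumin gene family was followed through 18 RNA-seq libraries of Hep3B cells, a human hepatoma line. Its 4 genes (ALB, AFP, AFM and GC) were taken as those rows of a count table of 36684 gene symbols. The family was chosen by its genes, with the low AFP and AFM counts of the RES libraries already known, so the values of the 4 genes in RES are given as a description without a test. Counts of other genes past the test in RES against Model are a description as well. The gene lists set beside the family were also chosen with earlier results of these data known. Their counts in any comparison are therefore not independent support. The 6 groups held 3 libraries each. Con was the control, Model cells received free fatty acids (FFA), and the FUCO-0.5, FUCO-1 and FUCO-2 cells received FFA with the carotenoid fucoxanthin at 0.5, 1 or 2 μM. RES cells received Resmetirom, a drug that activates thyroid hormone receptor β. The titles of the FUCO and RES libraries do not name FFA. In another of the study's experiments both compounds were given to FFA-treated cells. Whether the RES cells received FFA is not stated for these libraries. The study describes the 3 libraries of a group as biological replicates, and all cells came from this 1 line. In its other experiments FFA was carried on bovine serum albumin. Whether Con received that carrier is not given in the sources used here.

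ALB encodes serum albumin, the main protein of blood plasma, which hepatocytes secrete and which carries fatty acids, bilirubin and drugs. AFP encodes α-fetoprotein, its fetal counterpart, which the liver largely stops making after birth and which many hepatomas make again. AFM encodes afamin, a glycoprotein that binds vitamin E and keeps Wnt proteins soluble. GC encodes the vitamin D-binding protein, which also captures monomeric actin. The genes arose from a common ancestor by duplication, and their proteins are built of repeated domains held together by disulfide bonds. In hepatocytes the ALB promoter is bound by C/EBP and NF-Y factors, and the AFP promoter by C/EBP factors, among others.

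All 4 genes lie on chromosome 4 of GRCh38.p14. ALB spans chr4:73404287-73421482, AFP spans chr4:73436221-73456174 and AFM spans chr4:73481745-73504001, all on the plus strand. GC spans chr4:71741693-71805520 on the minus strand. The gap between ALB and AFP is 14.7 kb, that between AFP and AFM is 25.6 kb, and GC ends 1598.8 kb before ALB starts. The canonical transcripts of ALB, AFP and AFM each have 15 exons, with lengths of 2285, 2426 and 1997 nt. That of GC has 13 exons and 1685 nt.

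The 250 bases before the RefSeq start are shown for the genes of the ALB–AFP–AFM cluster, because their levels are compared below. Each window holds the motif GTTAAT, while CCAAT is absent from that of AFM and TATAAA from that of ALB. Of the 4 genes, 3 matched the RefSeq promoter table. Each sequence is read 5′ to 3′ on the plus strand of GRCh38.p14 at chr4:73404037-73404286 (ALB), chr4:73435971-73436220 (AFP) and chr4:73481495-73481744 (AFM). Capitals mark the motif GTTAAT, the box CCAAT (written ATTGG where it lies on the other strand) and the TATA box TATAAA.
ALB: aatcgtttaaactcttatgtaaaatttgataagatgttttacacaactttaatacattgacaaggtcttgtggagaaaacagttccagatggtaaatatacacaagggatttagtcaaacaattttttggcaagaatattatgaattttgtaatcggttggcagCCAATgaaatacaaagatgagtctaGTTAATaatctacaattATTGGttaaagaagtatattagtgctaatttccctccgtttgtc
AFP: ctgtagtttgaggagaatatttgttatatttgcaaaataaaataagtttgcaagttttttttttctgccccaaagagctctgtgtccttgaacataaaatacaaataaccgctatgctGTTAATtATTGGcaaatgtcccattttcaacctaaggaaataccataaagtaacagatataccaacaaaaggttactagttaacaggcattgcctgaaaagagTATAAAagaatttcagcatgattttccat
AFM: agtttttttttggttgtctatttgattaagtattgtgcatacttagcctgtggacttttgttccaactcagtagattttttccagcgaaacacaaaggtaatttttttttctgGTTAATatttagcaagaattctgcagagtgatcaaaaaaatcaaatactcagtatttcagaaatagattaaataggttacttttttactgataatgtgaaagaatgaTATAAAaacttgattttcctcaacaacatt

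GTTAAT begins 61 bases before the start of ALB, 132 before AFP and 137 before AFM. It occurs on either strand in 6.23% of 35116 RefSeq promoter windows of this length. CCAAT, the core of NF-Y sites, begins 86 bases before ALB on the plus strand and, as ATTGG, 44 bases before ALB and 125 bases before AFP, and 32.0% of all windows hold it. TATAAA begins 29 bases before AFP and 30 before AFM and is present in 10.7% of windows. The forkhead motif TGTTTAC (2.98% of windows) and the nuclear receptor motif AGGTCA (12.1%) are in 0 of the 3. The windows hold 30.0% G and C in ALB, 31.6% in AFP and 28.0% in AFM, against a median of 58.0% over all windows, of which 2.64% are at or below the AFP value. The letters describe these windows and say nothing of binding in these cells.

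Each library held between 16916688 and 23083498 counts, of which the 14557 genes kept by the filter on low counts took 99.94%. All 4 family genes passed that filter. Levels are in CPM (counts relative to the TMM-scaled total of a library), with the SD over 3 libraries. A change passed the test at a Benjamini-Hochberg adjusted p under 0.05 in edgeR's quasi-likelihood fit of all 18 libraries. Hepatocyte markers were expressed as the cell line's label states: all 9 (APOA1, APOA2, APOB, APOH, TTR, SERPINA1, FGB, TF and HNF4A) had at least 644 counts in every library. Of these, 4 (TTR, SERPINA1, TF and HNF4A) are also in gene lists used here. Of the immune markers PTPRC, CD68 and CD3E none had more than 7 counts in a library, the endothelial genes CDH5 and KDR had 0, VWF had at most 1, and PECAM1 had from 3 to 36. PECAM1 was higher in Model (1.26 CPM) than in Con (0.364 CPM, adjusted p = 0.00488 in edgeR). Of the bile duct cell markers KRT7 had at most 5 counts and CFTR at most 13, while KRT19 and SOX9 were expressed, and the 4 summed to between 284 and 351 CPM in Con, 335 and 359 in Model and 197 and 232 in RES. Of the stellate cell or fibroblast markers DCN had at most 3 counts, COL1A2 at most 27, COL1A1 from 12 to 56, LRAT from 30 to 71 and PDGFRB from 17 to 344. The 5 summed to between 21.5 and 23.4 CPM in Con, 15.2 and 20.1 in Model, 13.0 and 16.1 in FUCO-2 and 6.25 and 7.69 in RES, and PDGFRB fell from 18.3 CPM in Con to 12.3 CPM in Model (adjusted p = 0.00208) while COL1A2 rose from 0.225 to 0.915 CPM (adjusted p = 0.00509). The part of these levels in the results was not tested.

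In the control cells ALB was the most abundant of the 36684 transcripts, and the other 3 genes lay at very different levels below it. Per kilobase of transcript, the level in Con was 17934 ± 903 CPM for ALB, 2623 ± 128 for AFP, 1099 ± 78.6 for GC and 5.54 ± 0.779 for AFM. By CPM, AFP ranked 11, GC 32 and AFM 9318 in this group. The 4 genes together took 4.62% ± 0.182 of all counts in Con, 3.83% ± 0.0307 in Model, 3.70% ± 0.431 in FUCO-0.5, 3.42% ± 0.0731 in FUCO-1, 2.76% ± 0.230 in FUCO-2 and 0.838% ± 0.0267 in RES. CPM are relative to the rest of a library, and a lower value from fewer hepatocyte-like cells cannot be told apart from less RNA per cell.

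**Figure D1:**
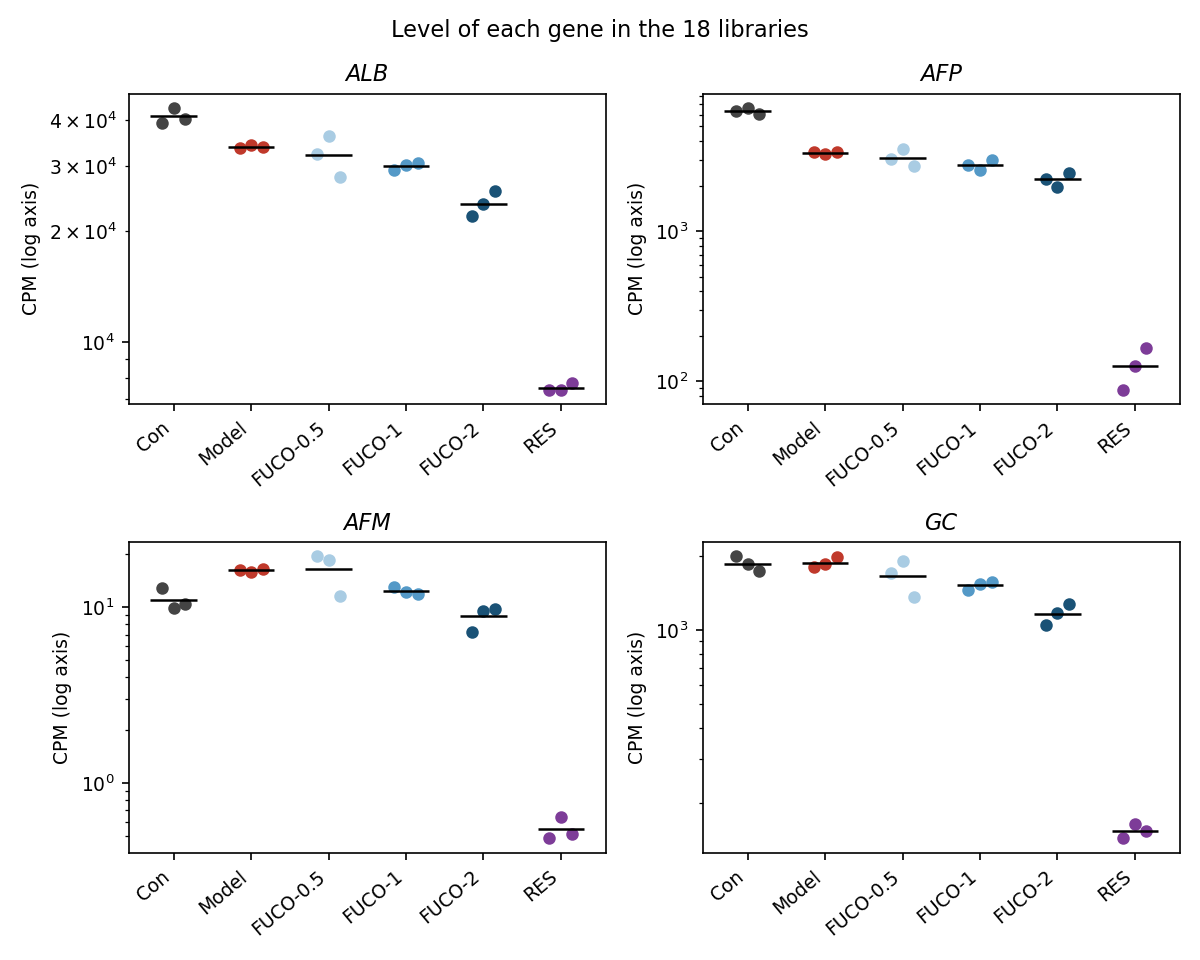
Levels of ALB, AFP, AFM and GC in CPM on log axes, 1 point per library and 1 black line per group mean, for 6 groups of 3. ALB and AFP are highest in Con, AFM is highest in Model and FUCO-0.5, GC is about level in Con and Model, and all 4 genes are lowest in RES, where AFM has between 11 and 12 counts a library.

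The first comparison, of Model with Con, asked what FFA did to each gene, and the family split. AFP fell to 52.6% of its control level, ALB fell to 82.8%, AFM rose 1.47-fold, and GC was at 101% and did not pass the test. Thus 3 of 4 genes passed, 2 lower and 1 higher, where 17.6% of all tested genes passed. The median log2 fold change of the 4 was -0.13, against 0.0011 over all tested genes. The summed level of the 9 hepatocyte markers was also lower in Model, between 20911 and 21201 CPM, than in Con, between 23991 and 28058 CPM, with 3 of the 9 past the test as lower and 0 as higher, and its part in the differences was not tested.

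AFP was at 6364, 6672 and 6051 CPM in the Con libraries and at 3390, 3260 and 3395 CPM in the Model libraries. Every Model library was far below every Con library. The log2 fold change was -0.93 ± 0.14 (SE, n = 3 against 3, adjusted p = 4.62e-05 in edgeR), and 1.06% of all tested genes fell further. AFP moved from rank 11 to rank 23 of all transcripts.

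ALB was at 39375, 43307 and 40258 CPM in Con and at 33619, 34276 and 33841 CPM in Model. The groups did not overlap, but the difference was small, with a log2 fold change of -0.27 ± 0.087 (SE) and a 95% interval from -0.45 to -0.094. The adjusted p was 0.0310 in edgeR. It was above 0.05 without Con replicate 2 (0.138) or 3 (0.0661), without Model replicate 1 (0.0899), 2 (0.0745) or 3 (0.0878), and with library totals in place of TMM (0.0789). ALB stayed the most abundant transcript of both groups.

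AFM was the member that rose, from 12.8, 9.91 and 10.4 CPM in Con to 16.3, 15.9 and 16.6 CPM in Model. These levels correspond to between 166 and 306 counts a library, and the groups did not overlap. The log2 fold change was 0.56 ± 0.15 (SE, adjusted p = 0.0114 in edgeR), and the adjusted p was 0.0666 without Con replicate 2 and 0.0564 without Con replicate 3. Only 1 of the 4 genes then passed, in each of these fits.

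GC was at 1990, 1841 and 1726 CPM in Con and at 1806, 1852 and 1966 CPM in Model. The groups overlapped, and the 95% interval of the log2 fold change ran from -0.18 to 0.21 (estimate 0.017, adjusted p = 0.926 in edgeR). The libraries of the groups did not overlap for 3 of the 4 genes, against 35.7% of all tested genes.

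The ratios between genes of the same library, per transcript length, showed the split without any scaling between libraries. For every 100 ALB transcripts there were 14.6 ± 0.543 of AFP in Con and 9.30 ± 0.298 in Model. GC went from 6.14 ± 0.615 to 7.50 ± 0.330 per 100 ALB. AFM went from 0.310 ± 0.0568 to 0.549 ± 0.0154 per 1000 ALB. None of these 3 ratios overlapped between Con and Model.

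**Figure D2:**
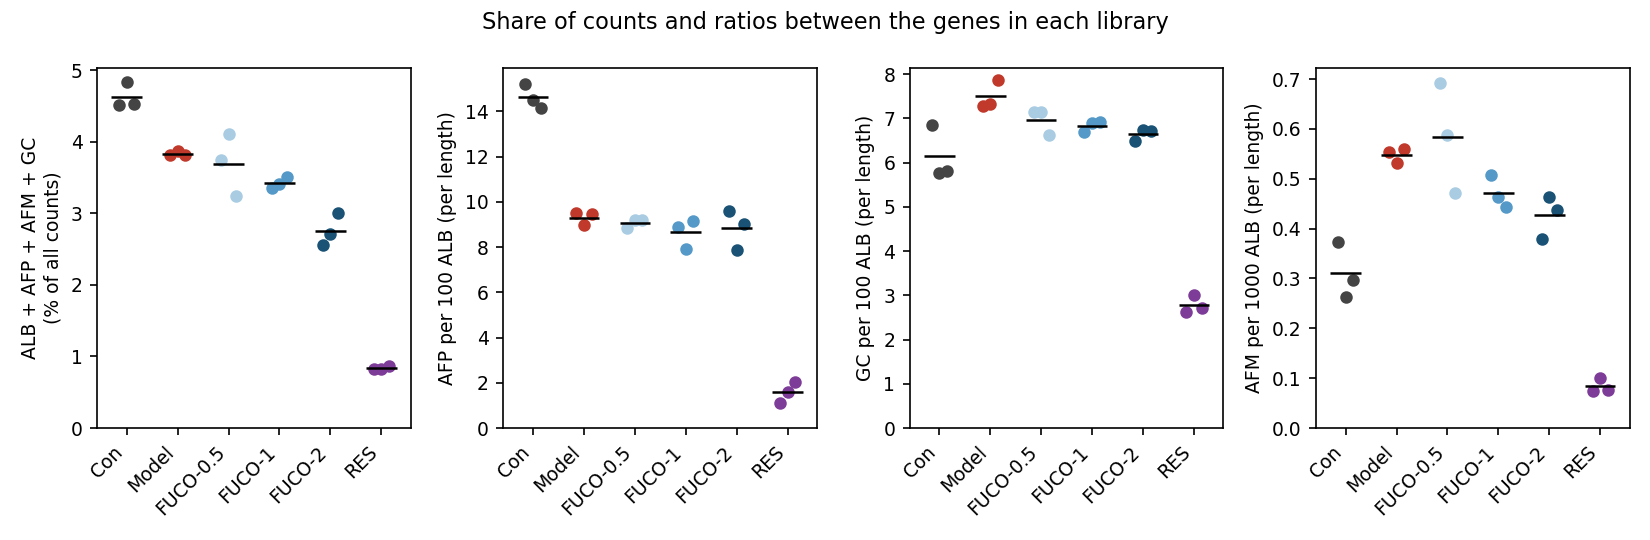
Share of all counts taken by the 4 genes, and AFP, GC and AFM relative to ALB per transcript length, 1 point per library with group means as black lines; all axes start at 0. AFP per 100 ALB drops from 14.6 in Con to 9.30 in Model and stays between 8.67 and 9.30 as a mean in the FUCO groups and Model, while the family's share of counts falls from 3.83% in Model to 2.76% in FUCO-2.

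With 2 μM fucoxanthin all 4 genes fell below Model: GC to 62.2%, AFM to 54.8%, AFP to 66.6% and ALB to 70.1% of its level. All 4 passed the test and none was higher, where 20.5% of all tested genes passed and 9.71% passed as lower. Their median log2 fold change was -0.64, against 0.0096 over all tested genes. The hepatocyte marker sum was between 15328 and 16844 CPM in FUCO-2, with 7 of the 9 markers past the test as lower than Model, and its part was not tested. No library of FUCO-2 overlapped one of Model for any of the 4, which held for 36.3% of all tested genes.

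GC was at 1049, 1176 and 1272 CPM in FUCO-2, below all 3 Model libraries, and the log2 fold change was -0.69 with an SE of 0.096 (adjusted p = 1.89e-05 in edgeR). This is the gene that FFA alone had left near its control level.

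AFM was at 7.26, 9.58 and 9.83 CPM in FUCO-2, and its log2 fold change from Model was -0.87 ± 0.15 (SE, adjusted p = 0.000274 in edgeR). Its level in FUCO-2 was also below every Con library, but the difference from Con did not pass (95% interval of the log2 fold change from -0.64 to 0.013, adjusted p = 0.158). AFM counts in FUCO-2 were between 126 and 180 a library.

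AFP was at 2240, 1982 and 2464 CPM in FUCO-2, with a log2 fold change from Model of -0.59 ± 0.14 (SE, adjusted p = 0.00383 in edgeR). ALB was at 21943, 23701 and 25696 CPM, and the log2 fold change was -0.51 with an SE of 0.087 (adjusted p = 0.000187 in edgeR). Both were therefore lower still than in Model, where each was already below Con. The absolute log2 fold change was under 1, the study's second threshold, for each of the 4 genes.

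The ratio of AFP to ALB hardly moved among the FFA-treated groups, at 9.08 ± 0.206 per 100 ALB in FUCO-0.5, 8.67 ± 0.655 in FUCO-1 and 8.84 ± 0.885 in FUCO-2. The range in FUCO-2, from 7.88 to 9.62, overlapped that of Model, from 8.96 to 9.50. GC per 100 ALB was 6.64 ± 0.139 in FUCO-2, with all libraries below those of Model. AFM per 1000 ALB was 0.426 ± 0.0433 there, below Model and above Con in every library.

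At the lower doses the test found none of the 4 genes changed from Model. In FUCO-0.5, where 1.45% of all tested genes passed, 0 of 4 did and 0 had an unadjusted p under 0.05. DESeq2 also called 0. ALB was at 32324, 36191 and 27998 CPM. AFP was at 3035, 3538 and 2732 CPM. In both, replicate 2 lay above every Model library and replicates 1 and 3 lay below every one. AFM was at 19.5, 18.6 and 11.6 CPM. GC was at 1703, 1905 and 1365 CPM. Replicate 3 was the lowest of the 3 for every gene, and each group of values overlapped Model. The 95% intervals of the log2 fold change from Model ran from -0.26 to 0.10 for ALB, from -0.40 to 0.17 for AFP, from -0.27 to 0.33 for AFM and from -0.37 to 0.020 for GC.

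In FUCO-1 the 4 genes were all lower than Model without overlap, yet none passed, where 3.21% of all tested genes passed and 23.3% did not overlap. ALB was at 29359, 30302 and 30704 CPM. AFP was at 2773, 2551 and 2991 CPM. For both genes every FUCO-1 library lay below Model and above FUCO-2. AFM was at 13.0, 12.3 and 11.9 CPM. GC was at 1447, 1538 and 1567 CPM. AFM and GC had an unadjusted p under 0.05. Their log2 fold changes were -0.39 (95% interval from -0.69 to -0.085, adjusted p = 0.164 in edgeR) and -0.30 (from -0.50 to -0.11, adjusted p = 0.0817). For ALB and AFP they were -0.17 (from -0.35 to 0.0082) and -0.27 (from -0.56 to 0.012). This count depended on the fit: 1 of the 4, GC, passed in DESeq2 and without FUCO-0.5 replicate 2, FUCO-0.5 replicate 3 or FUCO-2 replicate 1, and 3 passed when only these 2 groups were fitted.

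FUCO-2 was directly compared with FUCO-1 to ask whether the step from 1 to 2 μM changed the genes. GC and ALB passed, at -0.38 with an SE of 0.096 (adjusted p = 0.0167 in edgeR) and -0.34 with an SE of 0.087 (adjusted p = 0.0186) on the log2 scale. AFM at -0.48 (adjusted p = 0.0665) and AFP at -0.31 (adjusted p = 0.192) did not. Of all tested genes 6.30% passed in this comparison and 2.23% passed as lower. Leaving out FUCO-1 replicate 3, FUCO-2 replicate 1 or FUCO-2 replicate 2 left 0 of the 4, with adjusted p from 0.0569 to 0.0746 for GC and ALB.

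Set against Con, FUCO-0.5, FUCO-1 and FUCO-2 each had 3 of the 4 genes past the test, where 21.9%, 18.3% and 24.8% of all tested genes passed. These comparisons share the Con libraries with one another. AFP was at 48.7%, 43.6% and 35.0% of Con in the 3 groups and ALB at 78.5%, 73.5% and 58.0%, and all 6 of these differences passed. AFM was higher than Con in FUCO-0.5 (log2 fold change 0.58, adjusted p = 0.00635 in edgeR), although replicate 3 of FUCO-0.5 lay within the Con range, and the call was lost without FUCO-0.5 replicate 1 (adjusted p = 0.0566). AFM in FUCO-1 was near Con (0.17, adjusted p = 0.498). GC was lower than Con in FUCO-1 (-0.29, adjusted p = 0.0369) and FUCO-2 (-0.67, adjusted p = 1.31e-05), but not past the test in FUCO-0.5 (-0.16, adjusted p = 0.245). The FUCO-1 call for GC was lost when any 1 of Con replicates 1 and 2 or the 3 FUCO-1 libraries was left out, with adjusted p from 0.0569 to 0.131, without the RES group (0.0526) and with library totals in place of TMM (0.120).

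**Figure D3:**
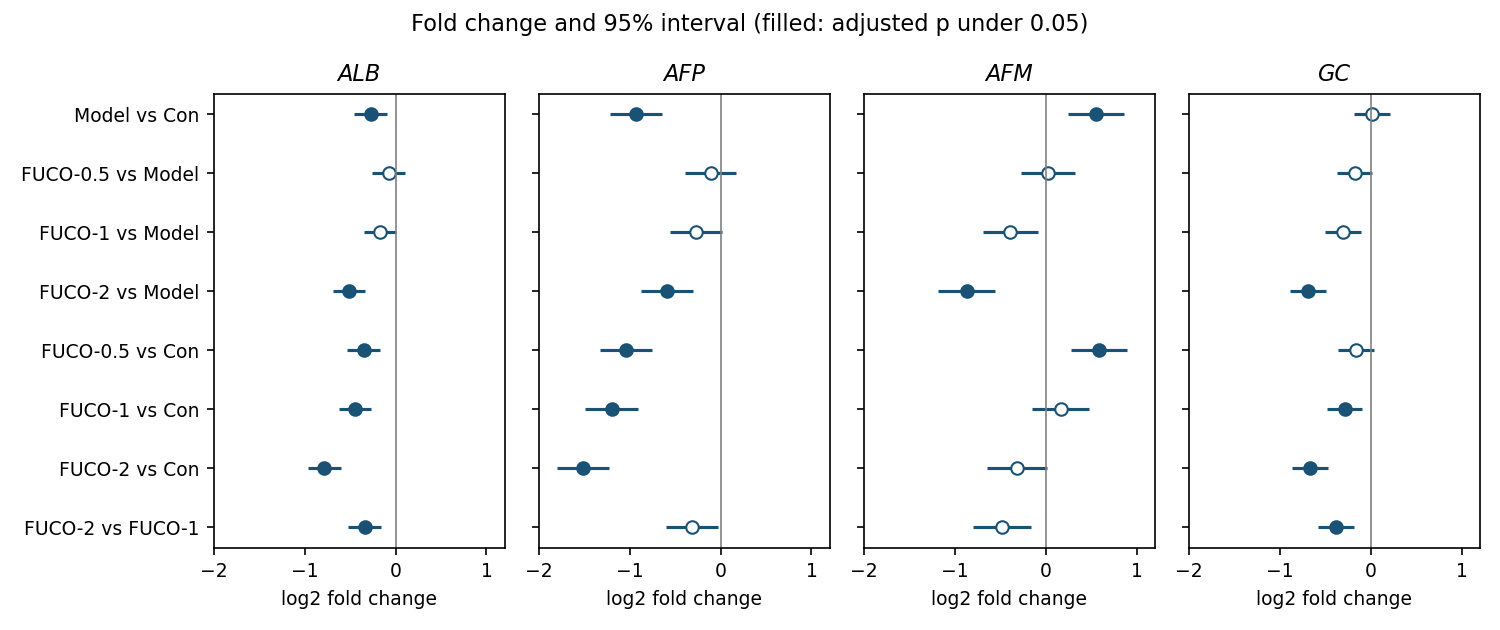
Log2 fold change (point) with its 95% interval (line) from edgeR for each gene in the 8 tested comparisons; filled points have an adjusted p under 0.05. All 4 points are filled and below 0 in FUCO-2 against Model, and AFM alone lies above 0 in Model against Con with a filled point.

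The levels of each gene can be ordered by group mean. ALB and AFP had the same order, with Con highest, followed by Model, FUCO-0.5, FUCO-1, FUCO-2 and RES. Between neighbours in this order the libraries of Model and FUCO-0.5 and those of FUCO-0.5 and FUCO-1 overlapped, and the other neighbours did not. AFM ran from FUCO-0.5 through Model, FUCO-1, Con and FUCO-2 to RES, with overlap between FUCO-0.5 and Model and between FUCO-1 and Con. GC ran from Model through Con, FUCO-0.5, FUCO-1 and FUCO-2 to RES, and its first 4 groups overlapped with their neighbours. The spread between replicates was widest in FUCO-0.5 for ALB, GC and AFM, with coefficients of variation of 12.7%, 16.5% and 26.3%.

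With RES all 4 genes were far lower than in any other group. AFP was at 87.7, 126 and 168 CPM, 26.4-fold below Model and 50.1-fold below Con. AFM was at 0.485, 0.646 and 0.513 CPM, from 12, 12 and 11 counts, 29.7-fold below Model and 20.2-fold below Con. These are the genes whose fall was known when the family was chosen.

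GC was at 143, 164 and 155 CPM with RES, 12.2-fold below Model and 12.0-fold below Con. ALB was at 7424, 7411 and 7747 CPM, 4.505-fold below Model and 5.44-fold below Con. ALB thus had the smallest fall of the family, and its rank among all transcripts went from 1 to 7, while AFP went from rank 23 in Model to 1579 and GC from 29 to 1196. AFP also had the widest relative spread of the 4 in this group (coefficient of variation 31.5%).

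The fitted log2 fold changes from Model to RES were -2.17 for ALB, -4.72 for AFP, -4.89 for AFM and -3.60 for GC. Among the 14557 tested genes, ranked from the largest fall, AFM was at rank 4, AFP at 7, GC at 37 and ALB at 227 in this fit. The groups were separate for 4 of 4 genes, and so were they for 64.0% of all tested genes. The same family ratios shifted as well: AFP was at 1.58 ± 0.464 and GC at 2.78 ± 0.203 per 100 ALB, and AFM at 0.0834 ± 0.0142 per 1000 ALB, each below all libraries of the other groups. The summed level of the 9 hepatocyte markers was lower with RES too, between 13171 and 13749 CPM against between 20911 and 21201 in Model. As a description, 7 of the 9 were past the test as lower than Model and 1 as higher, where 49.4% of all tested genes passed. The part of the marker level in these differences was not tested.

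Other liver-secreted plasma carriers, a list of 16 proteins of which 14 were tested, were lower in part of the same groups. The shares of all tested genes that passed, to be set beside the counts of each list, were 17.6% in Model against Con, and 1.45%, 3.21% and 20.5% in FUCO-0.5, FUCO-1 and FUCO-2 against Model. In Model against Con 6 fell and 1 rose. The largest falls were those of CP, the copper-carrying ferroxidase (102 to 55.8 CPM, log2 fold change -0.87, adjusted p = 4.46e-05 in edgeR), and AHSG, which binds mineral (9838 to 5739 CPM, -0.78, adjusted p = 3.35e-06). SERPINA6, which carries cortisol, was the one that rose (0.30, adjusted p = 0.0222). In FUCO-2 against Model 7 fell and 0 rose, and the list's median log2 fold change was -0.34. HPX, which binds heme, fell from 20.5 to 10.3 CPM (-0.99, adjusted p = 3.66e-05) and TTR, which carries thyroxine, from 209 to 113 CPM (-0.88, adjusted p = 4.18e-06). In FUCO-0.5 AMBP fell alone (-0.31, adjusted p = 0.0288), and in FUCO-1 none of the 14 passed in edgeR or DESeq2, although 4 had an unadjusted p under 0.05.

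With RES all 14 tested carriers were past the test and lower than Model, where 49.4% of all tested genes passed and 25.1% passed as lower. The rule used this contrast, so these counts are given as a description. SERPINA7, the thyroxine-binding globulin, was at 1.37 CPM in RES and 26.0 in Model (19.2-fold lower), and HPX was at 3.23 CPM (6.32-fold lower). The median of the list was -1.46 on the log2 scale, that of the 4 albumin family genes was -4.16 and that of all tested genes 0.0023.

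Factors known to act on the ALB and AFP genes were a list of 28, all tested. In Model against Con 2 rose and 3 fell, a share near the 17.6% of all tested genes. CEBPD, a C/EBP factor induced in inflammation, rose from 33.7 to 91.2 CPM (log2 fold change 1.44, adjusted p = 1.22e-06 in edgeR), and PROX1 by 0.30 (adjusted p = 0.00509). CEBPA, a C/EBP factor of differentiated hepatocytes, fell from 241 to 165 CPM (-0.55, adjusted p = 0.00640), and FOXA3 by 0.35 on the log2 scale (adjusted p = 0.00746). In FUCO-2 against Model 1 rose and 7 fell: CEBPB rose (0.54, adjusted p = 0.00416), and ONECUT1 had the largest fall (-0.59, adjusted p = 8.52e-06). ONECUT1 was also the 1 factor of the list that passed in FUCO-1 (-0.37, adjusted p = 0.00508), and in FUCO-0.5 none passed in edgeR, 4 had an unadjusted p under 0.05 and 1 passed in DESeq2. The list's median log2 fold change was -0.058 in Model against Con and -0.13 in FUCO-2 against Model.

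In RES, as a description, 17 of the 28 factors were past the test as lower than Model and 3 as higher, where 49.4% of all tested genes passed. CEBPA was at 77.8 CPM against 165 in Model (-1.08 on the log2 scale) and PROX1 at 191 against 375 CPM (-0.97). DBP was higher, at 6.57 against 2.53 CPM (1.37), and so was CEBPB, at 90.4 against 49.9 CPM (0.86).

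AFP is a marker of fetal liver and hepatoma, and 15 other oncofetal and progenitor genes were all tested beside it. In Model against Con 2 of the 15 fell and 0 rose, a share not above the 17.6% of all tested genes that passed. DLK1, a fetal liver surface protein, fell from 493 to 322 CPM (log2 fold change -0.61, adjusted p = 0.000409 in edgeR). GPC3, the glypican of fetal liver and hepatoma, fell by 0.23 (adjusted p = 0.0298). In FUCO-1 against Model PROM1 fell (-0.35, adjusted p = 0.0111), and in FUCO-0.5 none passed in edgeR or DESeq2 and 1 had an unadjusted p under 0.05. In FUCO-2, where 20.5% of all tested genes passed, 6 fell and 1 rose (median -0.091). PEG10 (-0.53, adjusted p = 0.00120) and CD24 (-0.47, adjusted p = 0.000290) had the largest falls, and SOX9 rose (0.56, adjusted p = 0.00369). In RES, where 49.4% of all tested genes passed, 11 were past the test as lower than Model and 1, LIN28B, as higher, given as a description. The largest difference was in IGF2, the fetal growth factor, at 560 against 5124 CPM, and the next in H19, the RNA of the same imprinted locus, at 805 against 3852 CPM.

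Of 8 genes for propeptide cleavage and disulfide formation, 6 rose and none fell in Model against Con, led by the oxidase ERO1B (log2 fold change 0.51, adjusted p = 0.0124 in edgeR) and the disulfide isomerase PDIA4 (0.44, adjusted p = 1.69e-05). In the same list 2, 4 and 5 fell below Model in FUCO-0.5, FUCO-1 and FUCO-2, and none rose in edgeR or DESeq2. The median log2 fold change was 0.31 in Model against Con and -0.43 in FUCO-2 against Model. PDIA4 was among them at every dose, with log2 fold changes of -0.33, -0.43 and -0.66 (adjusted p = 0.00289, 8.58e-05 and 7.88e-08). As a description, 2 of the 8 were past the test as lower than Model in RES and 1, ERO1B, as higher (0.94), beside 49.4% of all tested genes.

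Of 11 genes for uptake of the proteins and for metabolism of their ligands, 9 were tested. The adaptor DAB2 (-0.49, adjusted p = 0.000127 in edgeR) and CYP27A1, a hydroxylase of sterols and vitamin D, (-0.34, adjusted p = 0.00940) fell in Model against Con (list median -0.032). Against Model none passed in any FUCO group in edgeR or DESeq2, and 0, 0 and 2 had an unadjusted p under 0.05 in FUCO-0.5, FUCO-1 and FUCO-2. In RES, as a description, 3 of the 9 were past the test as lower than Model and 1 as higher (list median 0.11). Of all tested genes 49.4% passed there. FCGRT, the receptor that recycles albumin, was at 262 CPM in Model and 136 CPM in RES (-0.94 on the log2 scale).

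**Figure D4:**
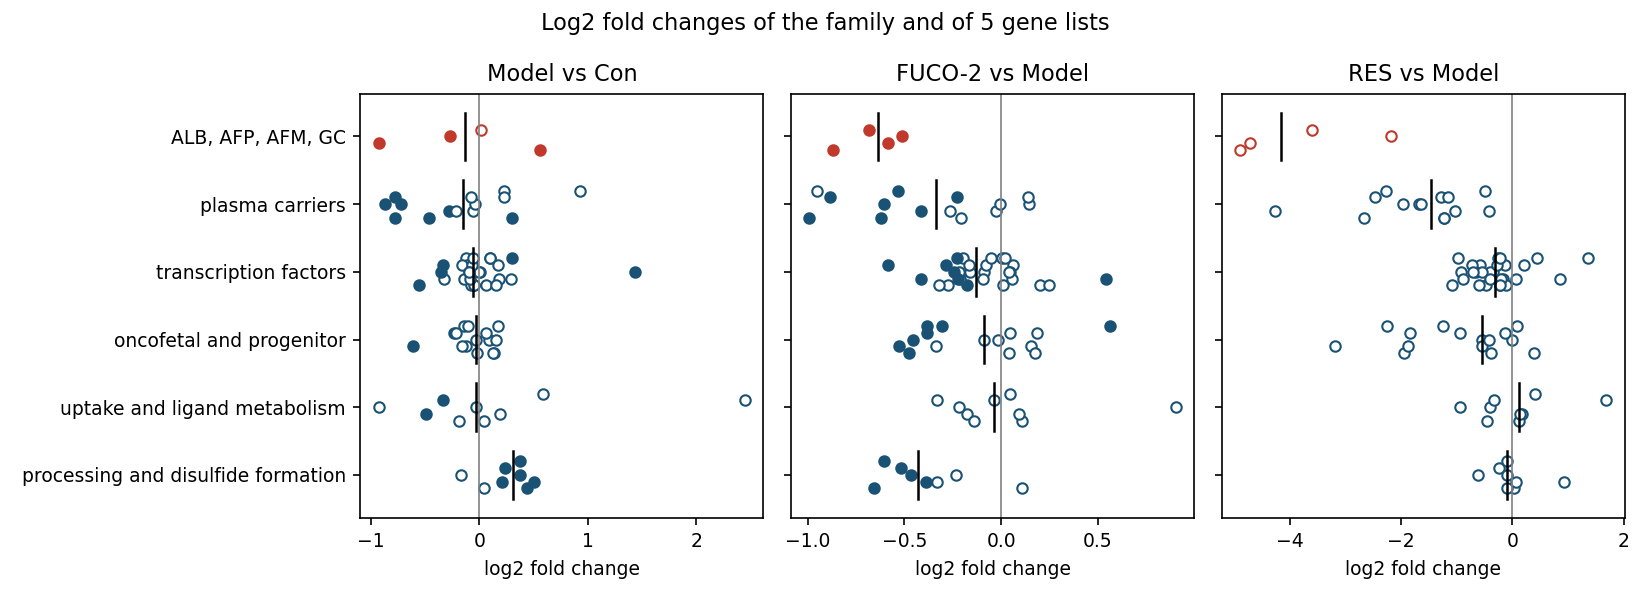
Log2 fold change of each tested gene (circles) of the family and of 5 gene lists in 3 comparisons, with medians as black bars; filled circles have an adjusted p under 0.05, and RES against Model is drawn without a test. In FUCO-2 against Model the medians are -0.64 for the family and -0.34 for plasma carriers; in RES against Model they are -4.16 and -1.46.

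The chromosomal neighbours of the family are given beside it. Within 1 Mb of a member lie 35 other genes of the table, of which 21 were tested. In Model against Con, where 17.6% of all tested genes passed, 9 rose and 0 fell (median log2 fold change 0.29). Of those that rose, 6 were CXC chemokines beyond AFM. CXCL8, 236.6 kb from AFM, rose from 50.4 to 248 CPM (log2 fold change 2.30, adjusted p = 9.75e-06 in edgeR), and CXCL2, 593.0 kb from AFM, rose from 8.53 to 41.8 CPM (2.29, adjusted p = 8.68e-06). In FUCO-0.5, where 1.45% of all tested genes passed, 3 of the neighbours fell below Model and 0 rose. The largest falls were those of CXCL8 (-1.17, adjusted p = 0.0381 in edgeR) and CXCL2 (-1.07, adjusted p = 0.0487). In FUCO-1, where 3.21% of all tested genes passed, 3 fell and 0 rose. CXCL8 (-1.64, adjusted p = 0.00145 in edgeR) and CXCL2 (-1.27, adjusted p = 0.00868) were again first. In FUCO-2 2 neighbours rose and 1 fell (median 0.095), a share not above the 20.5% of all tested genes that passed. AREG rose (0.56, adjusted p = 0.0157), as did DCK (0.31, adjusted p = 0.00829). The one that fell was LINC02499, a long non-coding RNA 4.8 kb from AFM, from 1.13 to 0.598 CPM (adjusted p = 0.0366). It is named as the nearest neighbour of AFM and was at 0 counts in all RES libraries. ANKRD17, the nearest tested gene on the other side of the cluster (145.5 kb from ALB), was between 160 and 179 CPM as a mean in Con, Model, FUCO-2 and RES, and passed neither in Model against Con nor in FUCO-2 against Model. With RES, as a description, 7 of the 21 were past the test as higher than Model and 5 as lower, where 49.4% of all tested genes passed.

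**Figure D5:**
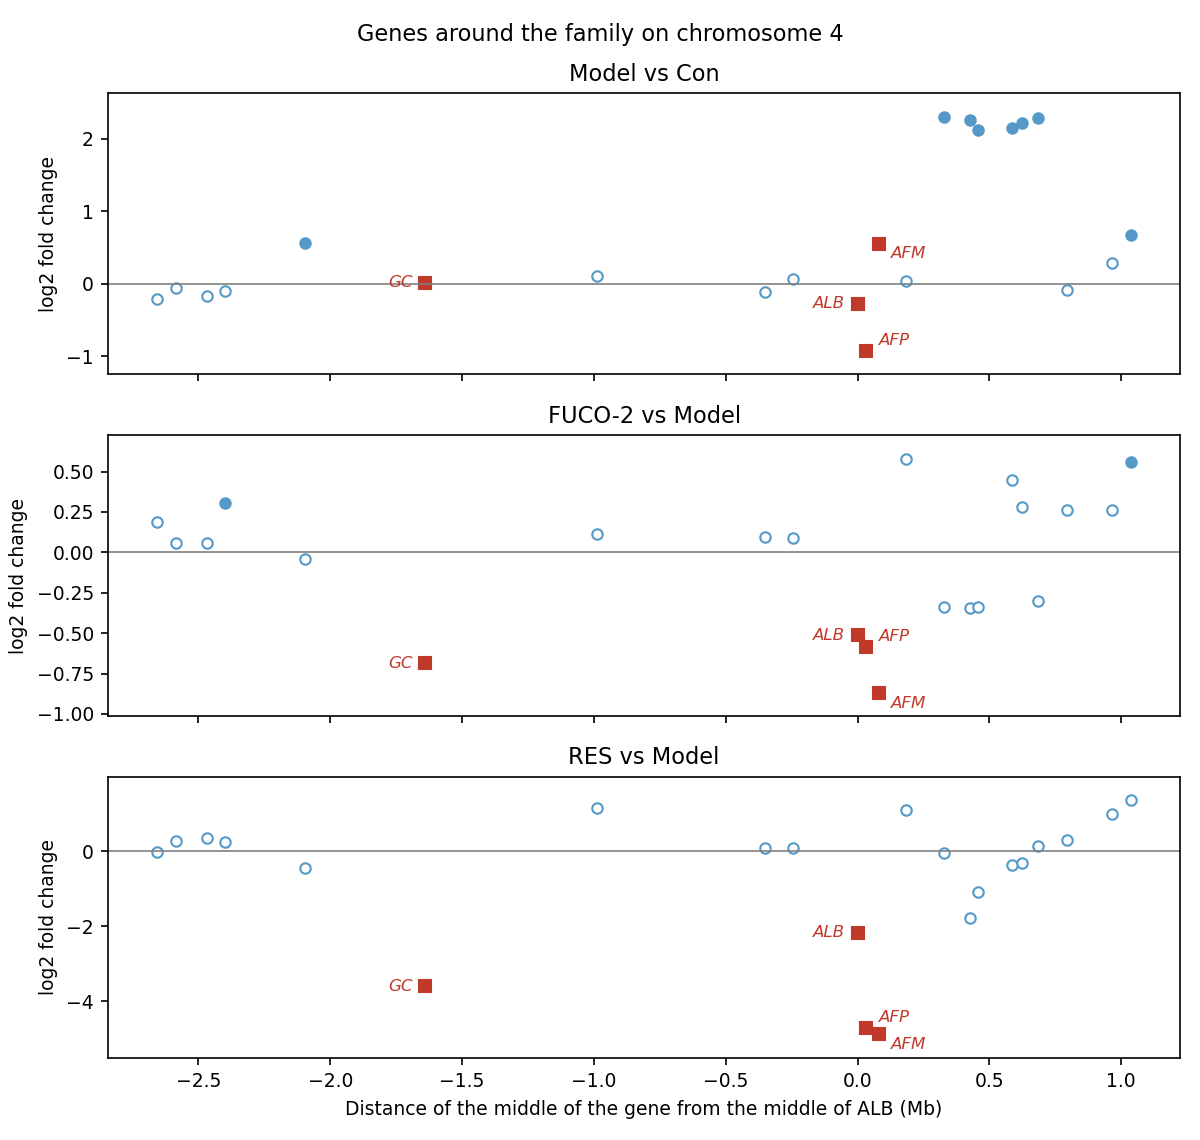
Log2 fold change of the 18 neighbours with a mean of at least 1 CPM (circles) and of the family (red squares), against the distance in Mb of the middle of each gene from the middle of ALB; filled circles have an adjusted p under 0.05, and RES against Model is drawn without a test. In Model against Con the 6 points above 2 are the CXC chemokines; in RES against Model the family genes lie at -2.17 and below.

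The genes whose levels were most like each member over the libraries were found among 9637 genes with a mean of at least 10 CPM, by Pearson's r of log2 CPM, which is a description. The points share their libraries and groups, and the RES libraries lie far from the others, so values without RES are given first. Over the 15 libraries without RES, ALB was most like GPC3 (r = 0.990), followed by PCOLCE2, CYB5B, SERPIND1 and FADS1 (0.968). AFP was most like IDI1 (0.976), MPC1, TMEM97, PRXL2A and SV2A (0.968). The isomerase IDI1 acts in cholesterol synthesis, and its mean was 476 CPM in Con, 285 in Model, 204 in FUCO-2 and 195 in RES. AFM was most like C6 (0.943), a complement component, and THSD7A, F11, WDR72 and ELOVL2 (0.914). C6 was at 16.0 CPM in Con, 22.9 in Model, 11.9 in FUCO-2 and 1.84 in RES. GC was most like KNG1 (0.962), the kininogen gene, and the genes CPM (carboxypeptidase M), APOH, SGCE and UGT2B4 (0.939). No gene stood in the first 5 of more than 1 member over these 15 libraries.

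Over all 18 libraries the first was GPC3 for ALB (r = 0.998), ALB for AFP (0.990), C6 for AFM (0.993) and TM4SF4 for GC (0.995). Between the members themselves, over the 15 libraries without RES, r was 0.914 for ALB with AFP and 0.914 for ALB with GC. It was 0.727 for AFP with GC, 0.726 for AFM with GC, 0.453 for ALB with AFM and 0.124 for AFP with AFM. Spearman's rank correlation over these 15 libraries was 0.971 for ALB with AFP and 0.886 for ALB with GC. It was 0.893 for AFP with GC, 0.661 for AFM with GC, 0.425 for ALB with AFM and 0.446 for AFP with AFM. Over all 18 libraries the 6 values of r lay between 0.949 and 0.990.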

How the data were processed

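RNA-seq libraries of Hep3B cells were assigned to 6 groups of 3 by their titles. Reads were trimmed by the authors (fastp) and mapped to GRCh38.p14 (STAR), and the deposited values are raw counts per gene symbol from featureCounts. Strand use and the handling of reads with several matches are not given in the sources used here, so overlapping genes are uncertain. FFA concentration, treatment times and the RES dose are not given for these libraries. All 18 count columns were used.

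The members and the gene lists were chosen with earlier results of these data known. R 4.3.3 with edgeR 4.0.16 was used (filterByExpr with a minimum count of 10 and a minimum total of 15, TMM, quasi-likelihood fit with 1 term per group, prior count 0.125, Benjamini-Hochberg adjustment over 14557 genes), and tested on simulated data. DESeq2, the tool of the study's methods, served as an alternative here (version 1.42.0). Precision is limited by 3 libraries a group. For AFM in RES it is also limited by 11 or 12 counts a library. Counting error alone is smaller for the other genes. From each list, the genes named are up to 2 with the largest rise and 2 with the largest fall per comparison among those past the test whose mean reached 1 CPM, and for each member the 5 genes most like it. A gene that this rule would name is not reported here. Exon numbers and transcript lengths come from GENCODE v44, positions and promoter sequences from RefSeq (GRCh38.p14).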

Additional observations from a re-analysis of the deposited data

How the results depend on the processing

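Of 864 recomputed gene values, 823 kept their direction and side of the threshold, 23 lost the call, 13 gained it and 5 changed sign. Many of these fits left out a library of a group outside the comparison, which hardly moves the fold change. The total is therefore no measure of stability. All 4 calls of FUCO-2 against Model and that of AFP in Model against Con held under all 27 alternatives. In FUCO-1 against Model 0 of 4 genes passed, but 2 did without the filter on low counts, 3 with only these groups fitted, 1 with DESeq2 and from 0 to 1 with a library left out. In FUCO-2 against FUCO-1 2 passed, 4 without the filter, 1 with only these groups and from 0 to 3 with a library left out. In Model against Con 3 passed, and from 1 to 3 with a library left out. The cause was not tested. Sign changes were confined to changes not past the test: with a library left out, GC in Model against Con ran from -0.033 (without Con replicate 3) to 0.071 and was -0.018 without Model replicate 3. AFM in FUCO-0.5 against Model ran from -0.11 (without FUCO-0.5 replicate 1) to 0.23 and was -0.063 without replicate 2, and ALB there ran from -0.17 to 0.015 (without FUCO-0.5 replicate 3). With library totals in place of TMM factors, an alternative chosen after seeing the data, ALB was -2.04 and GC -3.47 in RES against Model, and -2.25 and -3.40 against Con. This moved the median of all genes by 0.13 in RES against Model, 0.19 in RES against Con and 0.11 in FUCO-2 against Con.

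Whether the replicate numbers paired the libraries was not settled. Deviations of same-numbered libraries correlated between -0.594 and 0.516 (median 0.0485, 45 pairs). Those of different-numbered libraries correlated between -0.556 and 0.628 (median -0.0298, 90 pairs). The ranges overlap widely, so they cannot decide whether the libraries were paired. With the replicate block 3 genes passed in Model against Con and 4 in FUCO-2 against Model, and no call of a member changed. AFM in RES, at 11 or 12 counts a library, is the value that depth limits most.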
